A study of Homo sapiens with 6 samples.

Results

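The aminoacyl-tRNA synthetases that load amino acids onto tRNAs are described here in MDA-MB-231 cells, a triple negative breast cancer line, with and without knockdown of PELP1. The members were chosen by name, with earlier results of these data known. They were 20 genes for cytosolic synthetases and 16 genes for mitochondrial synthetases, whose symbols end in 2. All 36 were found among the 23228 gene symbols of the count tables, and all 36 were among the 12796 genes that passed the filter on low counts and were tested. The study compared 3 control samples with 3 PELP1-KD samples by RNA-seq of polyadenylated RNA. The control cells carried a stable non-targeted shRNA, and the PELP1-KD cells carried a stable shRNA against PELP1. All 6 samples shared the parent line, delivery by lentiviral particles, puromycin selection, and RPMI medium with serum, and a single shRNA construct stood for the knockdown. The labels do not say that the replicates were separate cultures, so the p-values measure the spread between these samples, which may be technical.

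Most synthetases recognize 1 amino acid and join it to the matching tRNAs at the cost of ATP, which supplies the ribosome with charged tRNA. Separate nuclear genes serve the cytosol and the mitochondrion for most amino acids, while GARS and KARS encode the enzymes of both compartments. A group of the cytosolic enzymes is held with scaffold proteins in the multisynthetase complex, and many of the cytosolic genes are known targets of ATF4, the transcription factor of the amino acid response. PELP1 is a coregulator of nuclear receptors and other transcription factors and takes part in ribosome biogenesis.

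The PELP1 mRNA was measured first. It stood at 57.2, 56.1 and 60.2 CPM (the count scaled to the TMM-adjusted library size) in the controls. It stood at 28.6, 29.9 and 30.3 CPM in the PELP1-KD samples, 48.9% lower, with no overlap between the groups (log2FC -0.97, SE 0.055, adjusted p-value 1.48e-11 in edgeR's quasi-likelihood test). Between 17304864 and 23132102 reads were counted on genes in each sample. Of the markers of the line, VIM, CD44 and EGFR were detected at 109 CPM or more in every sample, and ESR1, PGR and CDH1 had at most 4 counts in any sample. All 3 detected markers were lower in PELP1-KD cells (log2FC -0.21 for VIM, -0.55 for CD44 and -0.26 for EGFR). ERBB2 was not absent, at 109 to 128 CPM, and EPCAM stood at 8.62 to 11.2 CPM. PTPRC of leukocytes had 0 counts in all samples and PECAM1 of endothelium had 2 to 7 counts. In bulk samples such as these, fewer cells expressing a gene and less of its RNA per cell cannot be told apart.

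Synthetase genes moved in both directions and by small amounts. Of the 36 genes, 5 fell and 9 rose after knockdown at an adjusted p-value below 0.05, which is 38.9% of them, beside 46.9% of all tested genes. Among all tested genes 24.2% were lower and 22.7% were higher. The largest rise was that of VARS, by 30.1%, and 0 of the 36 passed a log2FC of 1 in size. The median size of the log2FC, without its sign, was 0.08 for the 36 genes and 0.17 for all tested genes. The 3 PELP1-KD samples lay wholly above or wholly below the 3 controls for 20 of the 36 genes, beside 55.0% of all tested genes. The share called was lower than that of the whole table and the share without overlap was near it. Both describe 36 genes, and no difference from the whole table was tested. The sizes were not matched for abundance, and the largest standard error was 0.0996 among the 36 and 0.632 among all tested genes. With library totals alone as the scaling, 18.9% of all tested genes were lower and 29.8% were higher.

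**Figure D1:**
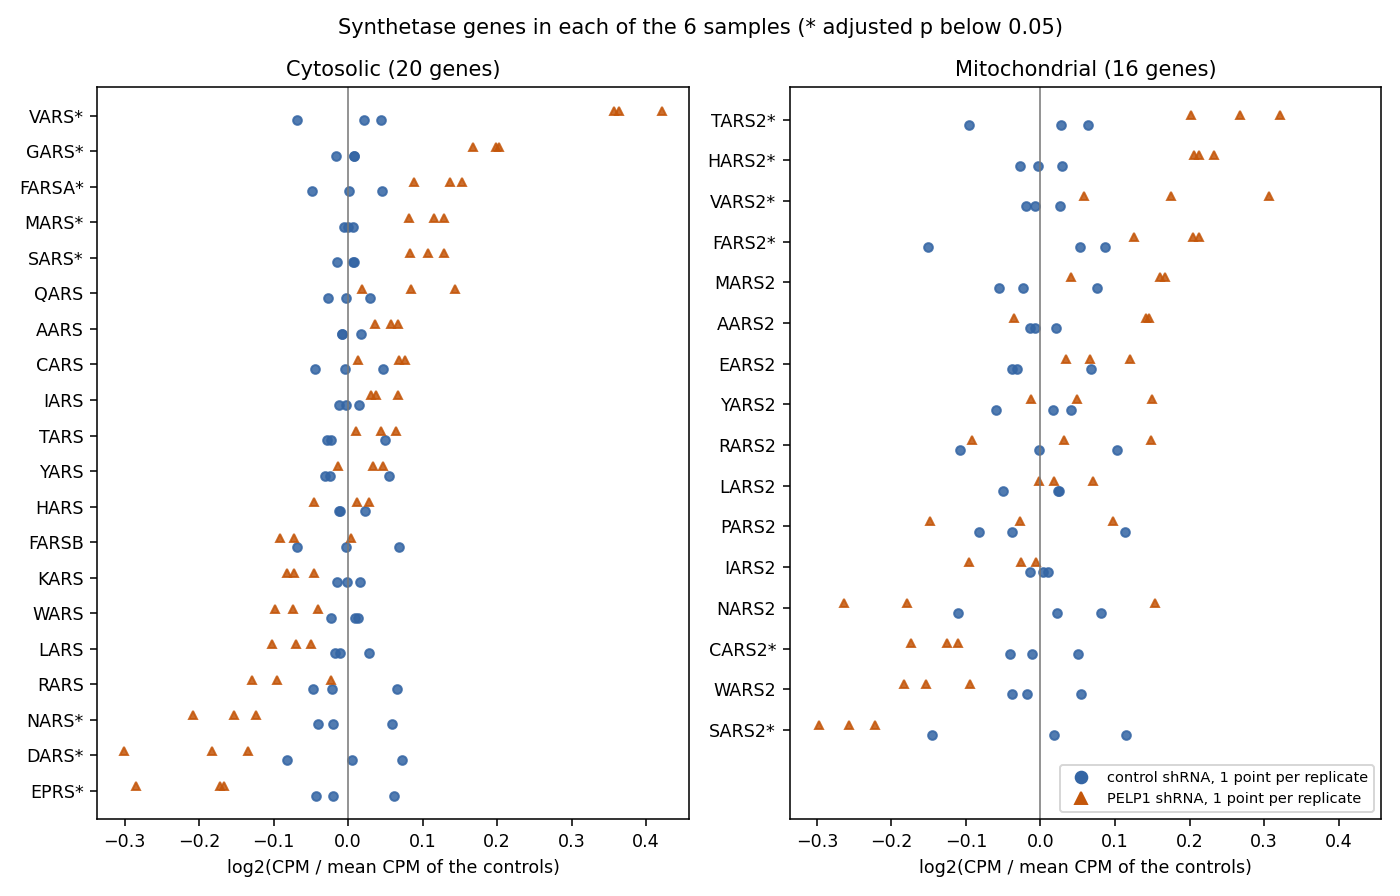
CPM of each synthetase gene in each sample, as the log2 of its ratio to the mean of the controls, with blue circles for the 3 control replicates and orange triangles for the 3 PELP1-KD replicates. VARS stands apart on the right and DARS, EPRS and SARS2 on the left, while most genes lie within 0.2 of the control mean.

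Of the 20 cytosolic genes, 5 rose and 3 fell, 40.0% of the list. The median log2FC was 0.03, within a range of -0.21 to 0.38, beside 0.0014 for all tested genes. These are abundant mRNAs, all 20 with a mean of at least 100 CPM, and among the 2705 tested genes of that abundance 60.1% were called, 40.9% lower and 19.1% higher. The list thus held relatively fewer lower genes and slightly more higher genes than others of its abundance, which is a description and not a test. With library totals alone, 10 of the 20 rose and 3 fell, beside 29.8% higher and 18.9% lower among all tested genes.

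VARS encodes the valyl-tRNA synthetase, a class I enzyme bound to the elongation factor EEF1, and lies on chromosome 6 from 31777518 to 31795953 of GRCh38. It stood at 328, 355 and 349 CPM in the controls and at 443, 461 and 441 CPM in PELP1-KD cells. Every PELP1-KD sample was above every control by a margin larger than the spread within either group (log2FC 0.38, SE 0.033, adjusted p-value 1.01e-08). GARS, the glycyl enzyme of cytosol and mitochondrion, stood at 299, 299 and 294 CPM in the controls and at 341, 334 and 342 CPM in PELP1-KD cells. The groups did not overlap, and GARS rose by 0.19 on the log2 scale (SE 0.03, adjusted p-value 2.78e-05). The other 3 that rose changed less. FARSA, the catalytic subunit of the phenylalanyl enzyme, had a log2FC of 0.13 (adjusted p-value 0.00844). The log2FC of both MARS, which charges methionine and thereby the initiator tRNA, and SARS, the seryl enzyme that also feeds selenocysteine synthesis, was 0.11 (adjusted p-values 0.00916 and 0.00699). In all 3 the PELP1-KD samples lay above the controls.

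The 3 cytosolic genes that fell were EPRS, DARS and NARS. EPRS encodes the fused glutamyl and prolyl enzyme of the multisynthetase complex and lies on chromosome 1 from 219968601 to 220046658. It stood at 380.4, 359 and 354 CPM in the controls and at 324, 299 and 325 CPM in PELP1-KD cells. All PELP1-KD samples were below all controls, and the level fell by 13.3% (log2FC -0.21, SE 0.036, adjusted p-value 9.85e-05). DARS, the aspartyl enzyme of the same complex, stood at 273, 261 and 246 CPM in the controls and at 237, 211 and 229 CPM in PELP1-KD cells. The groups stayed apart, although the lowest control and the highest PELP1-KD sample were close (log2FC -0.20, SE 0.043, adjusted p-value 0.000544). NARS, the asparaginyl enzyme, stood at 186, 176 and 174 CPM in the controls and at 161, 154 and 164 CPM in PELP1-KD cells, again without overlap (log2FC -0.16, SE 0.038, adjusted p-value 0.00168).

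The other 12 cytosolic genes did not pass the threshold, with log2FC between -0.08 and 0.08. KARS, the lysyl enzyme of both compartments and a member of the complex, stood at 325, 318 and 321 CPM in the controls and at 304, 311 and 306 CPM in PELP1-KD cells. Its groups did not overlap, but its log2FC of -0.07 missed the threshold (SE 0.03, adjusted p-value 0.0759). WARS, the tryptophanyl enzyme, which is known for induction by interferon, stood at 122, 119 and 122 CPM in the controls and at 118, 115 and 113 CPM in PELP1-KD cells (log2FC -0.07, adjusted p-value 0.14). LARS, whose protein also acts as a leucine sensor, likewise lay below the controls in all 3 PELP1-KD samples (log2FC -0.07, adjusted p-value 0.0591). For 3 of the 12, a single sample decided the call. Without PELP1-KD replicate 1, QARS was called higher (log2FC 0.12, adjusted p-value 0.0241) and RARS lower (log2FC -0.11, adjusted p-value 0.0464). Without control replicate 1, TARS was called higher (log2FC 0.06, adjusted p-value 0.0357).

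Grouped by assembly, 2 of the 8 synthetases of the multisynthetase complex fell (EPRS and DARS), 1 rose (MARS) and 5 did not pass, with a median log2FC of -0.07. Of the 12 cytosolic genes outside the complex, 1 fell (NARS), 4 rose (VARS, GARS, FARSA and SARS) and 7 did not pass, with a median of 0.05. Grouped by the fold of the catalytic domain, 0 of the 9 class I genes fell and 2 rose, and of the 10 class II genes 2 fell and 3 rose. With PELP1-KD replicate 1 left out, RARS of class I was also called lower and QARS higher, which made 3 lower and 2 higher genes in the complex. EPRS unites both classes and was counted in neither. With library totals alone, 3 genes of the complex, 7 outside it, 5 of class I and 5 of class II were higher. The share of all tested genes that were higher was 29.8% under that scaling. With TMM scaling, the shares called were 37.5% in the complex, 41.7% outside it, 22.2% in class I and 50.0% in class II. Beside them, 46.9% of all tested genes were called, 24.2% lower and 22.7% higher. Each group held few genes, and the difference between these groups of genes was not tested. FARSA and FARSB encode the catalytic and the other subunit of a single enzyme, and this pair was set side by side after its values were seen. FARSB stood at 91.8%, 78.2% and 84.5% of the FARSA CPM in the controls and at 79.8%, 71.5% and 73.2% in PELP1-KD cells. The ranges overlapped (two-sided exact permutation test, p = 0.2).

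Of the 16 mitochondrial genes, 4 rose and 2 fell, 37.5% of the list, with a median log2FC of 0.05 and a range of -0.26 to 0.26. Most were of middling abundance: 14 of the 16 had a mean of 10 to 100 CPM, a range in which 48.4% of the 6715 tested genes were called. TARS2, the threonyl enzyme, stood at 51.3, 57.3 and 55.8 CPM in the controls and at 65.9, 68.4 and 63.0 CPM in PELP1-KD cells. Each PELP1-KD sample exceeded each control, and TARS2 rose by 0.26 on the log2 scale (SE 0.053, adjusted p-value 0.000411). HARS2, the histidyl enzyme, stood at 47.8, 48.6 and 49.7 CPM in the controls and at 56.1, 56.4 and 57.2 CPM in PELP1-KD cells. Both groups were tight and well apart (log2FC 0.22, SE 0.049, adjusted p-value 0.00102).

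VARS2, the valyl enzyme of mitochondria, stood at 42.7, 43.7 and 42.4 CPM in the controls and at 44.7, 53.1 and 48.4 CPM in PELP1-KD cells. PELP1-KD replicate 2 was the highest, and without it the log2FC of 0.18 (adjusted p-value 0.0168) became 0.12 (adjusted p-value 0.118). FARS2, the single-chain phenylalanyl enzyme, stood at 25.4, 30.0 and 29.3 CPM in the controls and at 30.8, 32.5 and 32.7 CPM in PELP1-KD cells. Control replicate 1 was low, and the FARS2 log2FC of 0.18 (adjusted p-value 0.0352) became 0.11 without it (adjusted p-value 0.168). Without PELP1-KD replicate 2 it was 0.17 (adjusted p-value 0.0901) and without PELP1-KD replicate 3 it was 0.16 (adjusted p-value 0.114).

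SARS2, the seryl enzyme on chromosome 19 from 38915266 to 38930896, had the largest fall of all 36 genes. It stood at 28.3, 33.9 and 31.7 CPM in the controls and at 25.5, 26.9 and 26.2 CPM in PELP1-KD cells. Control replicate 1 was close to the PELP1-KD samples, which were tightly grouped below it (log2FC -0.26, SE 0.069, adjusted p-value 0.00353). In the annotation its exons overlap those of MRPS12, a gene for a mitochondrial ribosomal protein on the opposite strand, and whether the authors counted by strand is not given in the sources used here. MRPS12, looked up after the values were seen, had a log2FC of 0.13 (adjusted p-value 0.0288). The same limit holds for all 8 members whose exons overlap a counted gene on the opposite strand. Besides SARS2, HARS and HARS2, they are MARS (with DDIT3), EARS2 (UBFD1), WARS (WDR25), YARS (S100PBP) and AARS2 (TMEM151B). CARS2, the cysteinyl enzyme, stood at 61.9, 63.1 and 65.9 CPM in the controls and at 56.4, 58.9 and 58.3 CPM in PELP1-KD cells. The groups did not overlap, but the CARS2 call (log2FC -0.14, SE 0.048, adjusted p-value 0.0255) depended on most of the samples. It was lost without control replicate 2 (-0.14, adjusted p-value 0.0536), without control replicate 3 (-0.11, adjusted p-value 0.108), without PELP1-KD replicate 1 (-0.12, adjusted p-value 0.107) and without PELP1-KD replicate 3 (-0.14, adjusted p-value 0.06).

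The other 10 mitochondrial genes did not pass, with log2FC between -0.14 and 0.12. WARS2 was the closest to the threshold, with all PELP1-KD samples below the controls (log2FC -0.14, adjusted p-value 0.0528), and passed without PELP1-KD replicate 2 (-0.16, adjusted p-value 0.0485). NARS2 varied among the PELP1-KD samples, at 19.1, 20.2 and 25.5 CPM, beside 24.2, 23.3 and 21.2 CPM in the controls. Without PELP1-KD replicate 3 it was called lower (log2FC -0.22, adjusted p-value 0.0462). PARS2, the prolyl enzyme, was the scarcest of the 36 at 9.89 ± 0.711 CPM in the controls (SD, n = 3) and 9.74 ± 0.827 CPM in PELP1-KD cells.

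Set against each other per kb of exon, the cytosolic mRNAs were the more abundant. Their summed level was 1643, 1619.7 and 1601 RPKM (the CPM divided by the exon length in kb) in the controls and 1659.7, 1643 and 1660.8 RPKM in PELP1-KD cells. The group means differed by 2.05%, and the lowest PELP1-KD sample lay within the range of the controls. The summed mitochondrial level was 322, 330.2 and 326 RPKM in the controls and 331, 326 and 332 RPKM in PELP1-KD cells, a difference of 1.10% with overlapping ranges. The cytosolic sum was 5.10, 4.90 and 4.91 times the mitochondrial sum in the controls and 5.01, 5.03 and 5.01 times in PELP1-KD cells. The ratio of the sums therefore differed by less than the spread of the controls. GARS and KARS, which serve both compartments, were counted in the cytosolic sum only, so the ratio does not measure the balance of the compartments. With library totals alone as the scaling, the differences were 5.62% and 4.62% and the groups no longer overlapped. The median log2FC of all tested genes also moved under that scaling, from 0.0014 to 0.0507. The cytosolic sums were 1579 to 1606 RPKM in the controls and 1671 to 1689.8 RPKM in PELP1-KD cells with library totals alone, and the mitochondrial sums 315 to 325 and 332 to 337 RPKM.

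Within the cytosolic set, control levels spanned from 153 ± 4.61 RPKM for TARS and 146 ± 1.28 RPKM for SARS down to 32.9 RPKM for CARS and 28.5 RPKM for WARS (SD, n = 3). VARS moved from 79.8 to 104 RPKM, from the middle of the order to near DARS, which moved from 110.1 to 95.6 RPKM. Among mitochondrial genes IARS2, at 109.6 RPKM, stood far above the rest and within the range of the cytosolic set. The next was CARS2 at 33.9 RPKM, and 13 others lay between 7.86 RPKM (NARS2) and 19.6 RPKM (TARS2), where many neighbours in the order lay within their spread of each other. PARS2 was lowest at 4.21 RPKM.

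**Figure D2:**
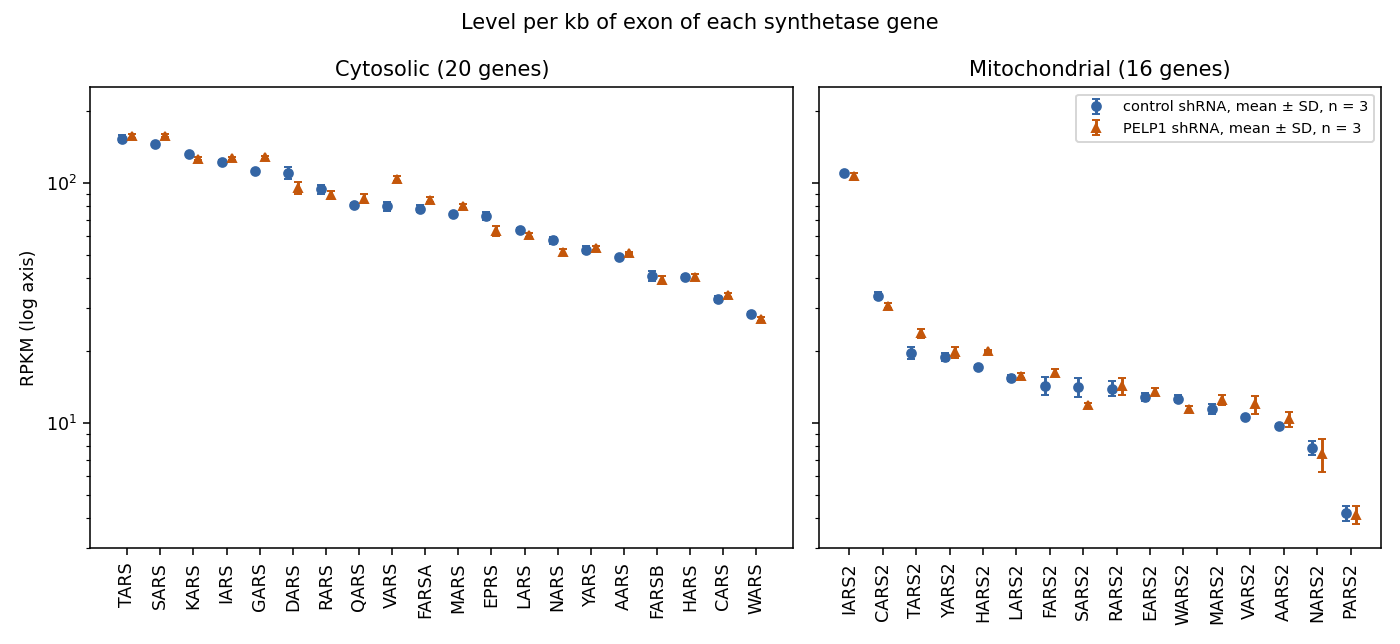
Level of each synthetase gene in RPKM on a log axis, ordered by the control mean, with blue circles for controls and orange triangles for PELP1-KD cells (mean ± SD, n = 3). The order is nearly kept between the groups, and IARS2 at 109.6 RPKM is the single mitochondrial gene within the upper cytosolic range.

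Each mitochondrial gene was then set beside the cytosolic gene for the same amino acid within each sample, which removes the effect of library scaling. The ratio of the CPM values was higher in all PELP1-KD samples than in all controls for 4 of 16 pairs, lower for 4 and overlapping for 8. Taken singly, 55.0% of all tested genes had groups without overlap, and no such share was taken for ratios of other genes. Two-sided exact permutation tests gave 0.1 for each of these 8 separated pairs, the smallest p that 3 against 3 samples allow, and 0.2 after Benjamini-Hochberg adjustment over the 16 pairs. SARS2 was at 9.93%, 11.9% and 11.3% of SARS in the controls and at 8.48%, 8.79% and 8.46% in PELP1-KD cells. It was the pair with the largest difference, -0.36 on the log2 scale, since SARS2 fell and SARS rose. The other 3 lower ratios were VARS2 to VARS (-0.20), CARS2 to CARS (-0.19) and IARS2 to IARS (-0.09). The 4 higher ratios were EARS2 to EPRS (0.28), TARS2 to TARS (0.22), HARS2 to HARS (0.22) and LARS2 to LARS (0.10). VARS and VARS2 both rose, but VARS by more.

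**Figure D3:**
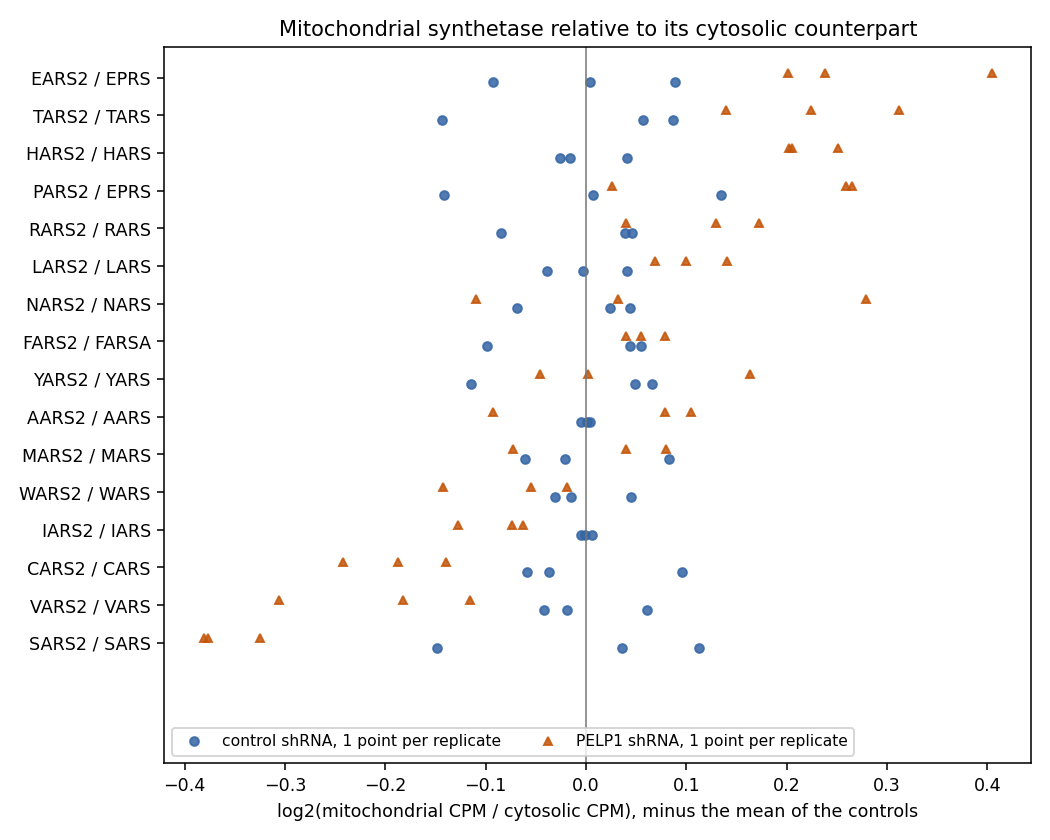
Log2 ratio of each mitochondrial synthetase to its cytosolic counterpart in each sample, minus the mean of the controls, with blue circles for control and orange triangles for PELP1-KD replicates. The ratios separate to the right for EARS2, TARS2, HARS2 and LARS2, and to the left for IARS2, CARS2, VARS2 and SARS2.

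HARS and HARS2 are neighbours that diverge from a shared stretch of chromosome 5. Their RefSeq starts, 140691370 on the minus strand and 140691455 on the plus strand of GRCh38.p14, are 85 bases apart, so that the promoter windows (250 bases before to 50 after the start) share 184 bases. The shared stretch holds the letters CCGGAAG, an ETS-type motif, in both orientations. Both occurrences are shown on the strand of HARS2, with the motif in capitals, because a single stretch faces 2 genes with different values.
First ETS-type motif, chr5:140691365-140691387, plus strand: aaggatgaCTTCCGGctatcgag
Second ETS-type motif, chr5:140691439-140691461, plus strand: ggctcctcCCGGAAGtgccgaag

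The HARS level was 170.5, 174.6 and 170.4 CPM in the controls and 167, 173 and 175 CPM in PELP1-KD cells, with overlapping groups (log2FC -0.0015, SE 0.036, adjusted p-value 0.977). HARS2 therefore went from 28.02%, 27.8% and 29.1% of HARS to 33.7%, 32.6% and 32.7%. The exons of both genes overlap in the annotation, on opposite strands. The motif itself was common: CCGGAAG stood on either strand in 8 of 16 cytosolic and 6 of 14 mitochondrial promoters, beside 10.7% of all promoters and 19.4% of those of tested genes.

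Promoter sequences in RefSeq were matched for 30 of the 36 members; DARS, LARS, VARS, YARS, AARS2 and VARS2 were not matched. The letters TGATGNAA, the core of the composite element through which ATF4 acts with C/EBP partners, stood on either strand in 6 of the 16 cytosolic promoters (37.5%) and in 1 of the 14 mitochondrial ones (7.14%, YARS2). The share was 3.67% of all 27305 promoters and 1.67% of the 8933 promoters of tested genes. The 6 cytosolic matches are printed because they set these genes apart from most promoters by sequence, and their values in the knockdown follow. Capitals mark the match, in the direction of each gene. Coordinates are GRCh38.p14.
AARS, chr16:70289678-70289701, minus strand: tctcgcagTTGCATCAgccaagtt
CARS, chr11:3057410-3057433, minus strand: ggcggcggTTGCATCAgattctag
IARS, chr9:92293695-92293718, minus strand: tcagcgcgTTGCATCAcctccgtg
MARS, chr12:57488056-57488079, plus strand: ggttccggTTGCATCAgcgaggga
NARS, chr18:57621807-57621830, minus strand: acgctctcTGATGCAAcgccggaa
TARS, chr5:33440959-33440982, plus strand: cctttcgaTTGCATCAgctggtcc

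In 5 of the 6 the match read on the opposite strand, as TTGCATCA, and in NARS it read on the strand of the gene. The first base of the match lay within 14 bases of the RefSeq start except in AARS, where it lay at -187. In the whole table, 24.2% of tested genes were lower and 22.7% were higher. Of the 6 genes with the match, NARS fell, MARS rose and the other 4 did not pass, with a median log2FC of 0.05. AARS, CARS, IARS and TARS were called higher as well with library totals alone, so that NARS alone was lower. That scaling also moved the whole table: 18.9% of all tested genes were lower, 29.8% were higher and their median log2FC was 0.0507. All 6 belong to the 12 cytosolic synthetases known as ATF4 targets, of which 2 fell (EPRS and NARS), 3 rose (GARS, MARS and SARS) and 7 did not pass, with a median of 0.04. The share called was 41.7% of the 12, beside 46.9% of all tested genes. Of the 12, 7 were higher with library totals alone, beside 29.8% of all tested genes with that scaling. ATF4 mRNA itself stood at 189, 184 and 187 CPM in the controls and 193, 202 and 192 CPM in PELP1-KD cells (log2FC 0.07, adjusted p-value 0.113, and 0.12 with an adjusted p-value of 0.00781 with library totals alone). The messenger level does not measure the ATF4 protein, which is controlled at translation.

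Genes of the ATF4 program changed in both directions. Of 10 genes, 4 rose, 3 fell and 3 did not pass, 70.0% called beside 46.9% of all tested genes, with a median size of the log2FC of 0.32. The difference from the synthetases was not tested. PHGDH of serine synthesis rose by 0.98 from a very low level (15 to 27 counts per control sample), CHAC1 of glutathione breakdown by 0.78 and ASNS, the asparagine synthetase, by 0.42 on the log2 scale (adjusted p-values 0.00139, 0.000204 and 6.62e-07). TRIB3, a pseudokinase, had a log2FC of 0.22 (adjusted p-value 0.00918), which missed the threshold without PELP1-KD replicate 2 (0.18, adjusted p-value 0.0608). DDIT4, an inhibitor of mTORC1, fell by 1.42, VLDLR, a lipoprotein receptor, by 0.52 and PSAT1 of serine synthesis by 0.17.

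The partners that prepare, hold and deliver the tRNAs were 31 genes in 5 lists. Of these, 10 fell and 3 rose, 41.9% in all beside 46.9% of all tested genes (24.2% lower and 22.7% higher). With library totals alone, 6 of the 31 fell and 11 rose. The whole table moved too under that scaling, to 18.9% falling and 29.8% rising. In the list of tRNA maturation and export, 5 of 11 genes fell, 0 rose and 6 did not pass, and with library totals alone 4 fell and 3 rose. TSEN54 was called higher without control replicate 2 (log2FC 0.19, adjusted p-value 0.0442) and without PELP1-KD replicate 1 (log2FC 0.19, adjusted p-value 0.0295). XPOT, which exports tRNA from the nucleus, stood at 208, 195 and 195 CPM in the controls and at 164, 159 and 162 CPM in PELP1-KD cells. Its groups were far apart (log2FC -0.30, adjusted p-value 1.04e-06). TRNT1, which adds the CCA end that synthetases charge, fell by 0.44, and TSEN15 of the tRNA splicing endonuclease by 0.43 (adjusted p-values 6.77e-05 and 3.73e-07). ELAC2, which trims the tRNA tail, had a log2FC of -0.11 (adjusted p-value 0.00852) and missed the threshold without PELP1-KD replicate 1 (-0.10, adjusted p-value 0.0534).

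Of the 7 genes for delivery of charged tRNA, 3 fell: EEF1A1 by 0.11, EEF1D by 0.13 and EEF1G by 0.15 on the log2 scale (adjusted p-values 0.00149, 0.003 and 0.000276). Beside this and the lists below, 24.2% of all tested genes were lower and 22.7% were higher. Among those with a mean of at least 100 CPM, as these 3 had, the shares were 40.9% and 19.1%. EEF1A2, the second form of the factor that carries charged tRNA to the ribosome, rose from 74.7, 76.5 and 79.3 to 97.5, 104 and 102.6 CPM without overlap (log2FC 0.40, adjusted p-value 2.92e-07). With library totals alone, 1 of the 7 was lower and 3 were higher, beside 18.9% and 29.8% of all tested genes. Of the 3 scaffolds of the multisynthetase complex, AIMP1 had a log2FC of -0.14 (adjusted p-value 0.0227), AIMP2 of 0.10 (adjusted p-value 0.0734) and EEF1E1 of -0.01 (adjusted p-value 0.871). The AIMP1 call was lost without PELP1-KD replicate 2 (-0.08, adjusted p-value 0.149) and with library totals alone (-0.09, adjusted p-value 0.135), which called AIMP2 higher (0.15, adjusted p-value 0.0113). Among 6 editing and other charging enzymes, AARSD1, which clears mischarged alanyl-tRNA, rose by 0.26 and DTD1, a D-aminoacyl-tRNA deacylase, fell by 0.17 (adjusted p-values 0.000199 and 0.00446). C14orf126, a second deacylase of that kind, was called higher without control replicate 1 (0.16, adjusted p-value 0.0439) and without PELP1-KD replicate 2 (0.20, adjusted p-value 0.0214). Of the 4 genes for the mitochondrial glutaminyl and initiator routes, PET112 alone passed (log2FC 0.14, adjusted p-value 0.0497). Leaving out any single sample other than PELP1-KD replicate 2 ended that call, with adjusted p-values of 0.0536 to 0.192, and without that replicate MTFMT, which formylates the initiator methionine, was called higher as well (0.28, adjusted p-value 0.0421).

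**Figure D4:**
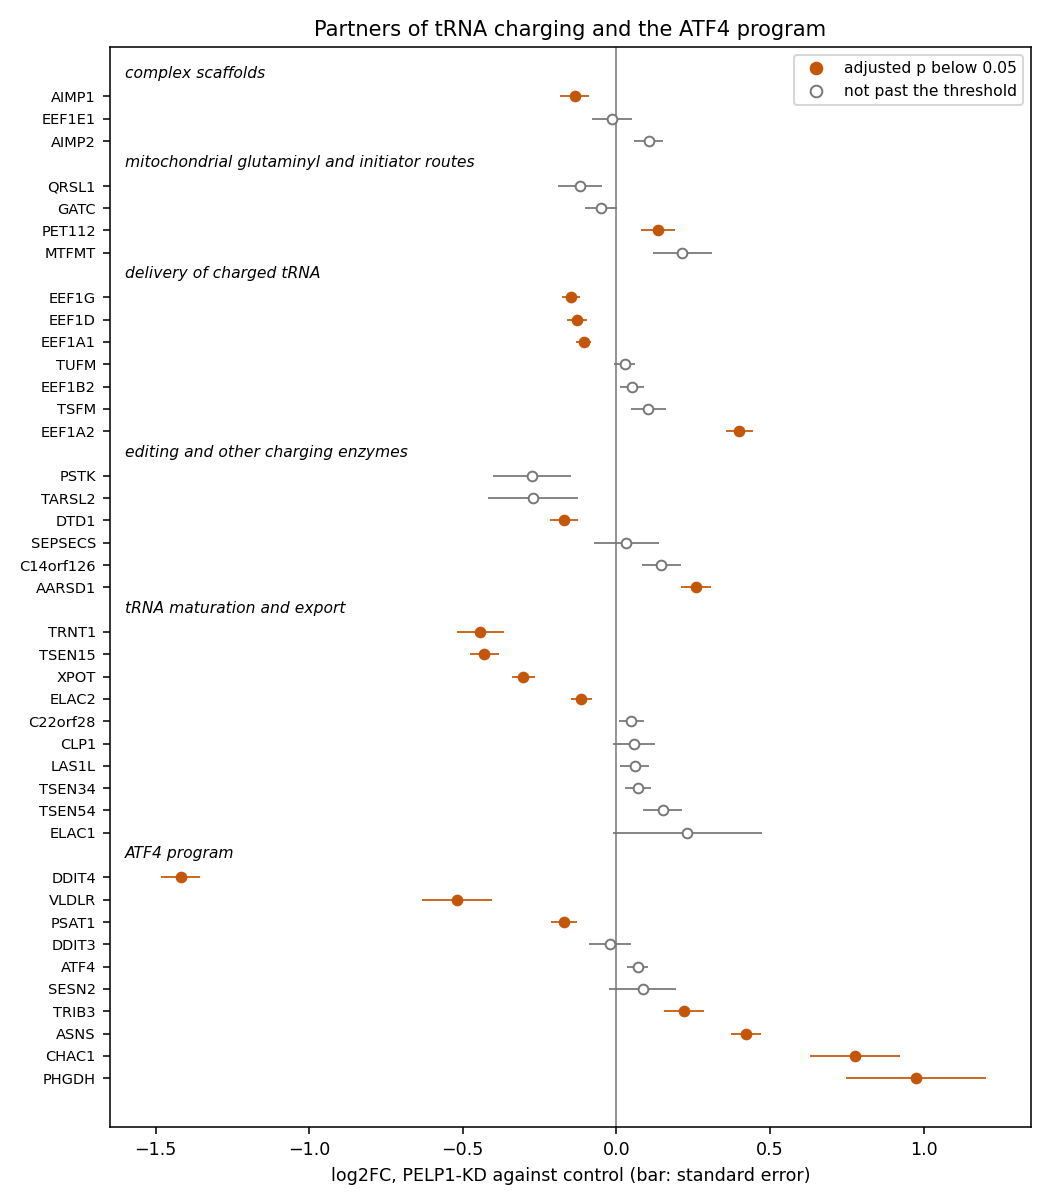
Log2FC of PELP1-KD against control cells for 5 lists of partners of tRNA charging and for the ATF4 program, with standard errors as bars and filled points for an adjusted p-value below 0.05. With TMM scaling, points of tRNA maturation and export past the threshold lie on the lower side, from TRNT1 at -0.44 to ELAC2 at -0.11.

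Across the 20 cytosolic genes, the log2FC ran with the G+C content of the longest coding transcript (Pearson's r 0.75, Spearman's rho 0.76). This is a description over genes measured in the same 6 libraries, and genes are not independent replicates. DARS, EPRS and NARS, the 3 that fell, had a G+C content of 41.2%, 43.2% and 44.3%, and VARS had the highest of the set at 62.6%. Across the 16 mitochondrial genes r was 0.11 and rho 0.17. SARS2, the gene that fell most, was also the richest in G+C of that set at 61.2%. Across 11035 tested genes with a value, r was 0.25 and rho 0.35, and across 2540 of those with a mean of at least 100 CPM r was 0.37 and rho 0.44. The median G+C content was 43.3% for all lower genes and 54.0% for all higher genes. In the mitochondrial set the order of these medians was reversed, with 58.8% for the lower genes and 55.0% for the higher genes, but these were only 2 and 4 genes. The part of base composition in the synthetase values was not tested.

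**Figure D5:**
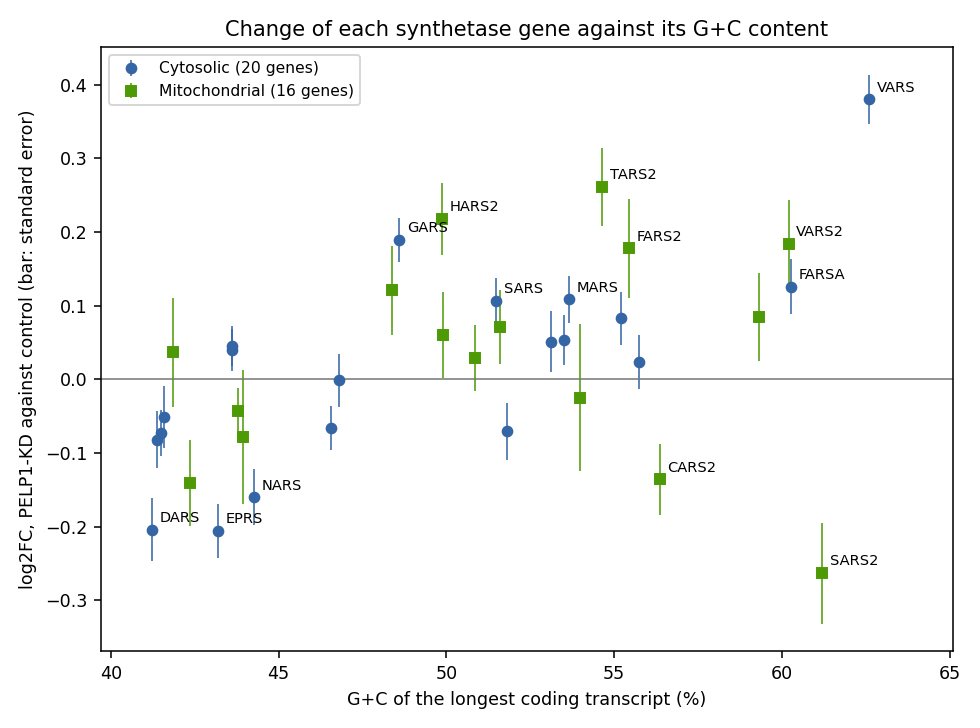
Log2FC of each synthetase gene with its standard error against the G+C content of its longest coding transcript in percent, with circles for cytosolic and squares for mitochondrial genes. The cytosolic points run from DARS at 41.2% on the lower left to VARS at 62.6% on the upper right, and SARS2 at 61.2% lies on the lower right.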

How the data were processed

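RNA-seq of 3 control and 3 PELP1-KD samples of MDA-MB-231 cells was analysed from the deposited counts, which the authors made as whole-number read counts per gene symbol without normalization, 1 table per sample. The submitters' processing notes name bcl2fastq, TopHat2, SAMtools, HTSeq and the build hg19. Versions, counting mode, annotation and use of strand are not given in the sources used here. Reads with several alignments (32.5% to 32.9% of the records of a table), reads on no gene (7.64% to 8.19%) and ambiguous reads (0.657% to 0.688%) were left out of library sizes and tests. Genes with near-identical copies are therefore counted low, and reads shared by overlapping genes may be lost.

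Genes passing filterByExpr (minimum count 10) were tested by the quasi-likelihood test of edgeR 4.0.16 in R 4.3.3 on the 2 groups, with TMM scaling, an adjusted p-value threshold of 0.05 and Benjamini-Hochberg adjustment over all 12796 tested genes. Standard errors were derived from each log2FC and the root of its F statistic. The exact permutation tests were run in SciPy 1.17.1 (Python 3.11.15). RPKM used exon lengths, and overlaps and gene positions used coordinates, of GENCODE 29 on GRCh38, while promoters came from RefSeq on GRCh38.p14. No coordinate was taken from or converted to hg19. Alternatives were RLE factors, library totals alone, DESeq2 1.42.0, voom in limma 3.58.1, other filters, the replicate number as a block and leaving out each sample. On simulated counts for this comparison (12707 genes run), 69 of 100 genes changed by 0.3 on the log2 scale and 99 of 100 changed by 1 were recovered, and 6 of 12507 unchanged genes were called. Few genes were changed there, evenly up and down, with the fitted spread. The simulation could therefore not show errors from scaling or from replicates that are technical. Changes below 0.3, the size of most synthetase changes, were not simulated.

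The members and gene lists were chosen with earlier results of these data known. Values in every sample were given for up to 6 members with the largest fall and 6 with the largest rise past the threshold, for HARS, HARS2, WARS, GARS and KARS, and for PELP1. NARS2, PARS2, ATF4, XPOT, EEF1A2 and MRPS12 were added after the values were seen. Up to 3 genes a direction were named in each partner list, and more in lists of up to 7 genes. ELAC2, TSEN54 and the ATF4 program genes past that number were also added. A floor of 3 counts corresponds to 0.13 to 0.173 CPM and covers counting error only. A gene of the tRNA maturation list is included in the counts and is not reported here.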

Additional observations from a re-analysis of the deposited data

How the results depend on the processing

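All 14 called synthetase genes kept their direction under the 13 alternatives, and 11 of them kept their call under all 13. CARS2 missed the threshold with library totals alone (-0.09) and with DESeq2 (-0.14, adjusted p-value 0.059), and FARS2 with DESeq2 (0.18, adjusted p-value 0.0846). Library totals alone moved the counts of higher cytosolic and partner genes to 10 and 11, those of lower mitochondrial and partner genes to 1 and 6, the summed levels to 5.62% (cytosolic) and 4.62% (mitochondrial) above the controls, the median log2FC to 0.0814 (cytosolic) and 0.098 (mitochondrial), and that of all tested genes from 0.0014 to 0.0507. DESeq2 called 1 mitochondrial gene lower. Leaving out 1 sample gave 1 to 3 lower and 2 to 4 higher mitochondrial genes, 2 to 5 higher partner genes and a cytosolic median of 0.016 to 0.048. Genes near no change turned sign: HARS with RLE factors (0.000291) and library totals (0.0479), and IARS2 (0.00686), PARS2 (0.0244) and EEF1E1 (0.035) with library totals. With 1 sample left out, the log2FC ranged from -0.017 to 0.0228 for HARS, -0.22 to 0.00391 for NARS2, -0.0916 to 0.0402 for PARS2, -0.0213 to 0.0951 for RARS2 and -0.0735 to 0.0646 for EEF1E1. The causes were not tested. With 3 samples a group, differences of a few percent in the scarcer mitochondrial genes were not resolved.

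Same-numbered samples did not deviate together (correlations 0.0388, 0.0653 and -0.0784 over tested genes), so the numbers were not taken as pairs. With the replicate block, 5 cytosolic and 3335 of all tested genes were lower, and 5 partner and 3140 of all tested genes were higher. The block also gave 4 lower and 2 higher genes in the multisynthetase complex, 2 lower class I genes and a call for AIMP2 (0.11, adjusted p-value 0.0475). DESeq2 called 2670 genes lower and 2290 higher in all.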
